A study of Mus musculus with 18 samples.

Results

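The ATF4 and amino acid response genes examined here are 35 genes of the integrated stress response, taken as a given list of names. The members were chosen with earlier results of these data known, so counts of their calls describe the list. The list covers 6 transcription factors, 6 stress effectors, 3 secreted or receptor proteins, 6 enzymes of serine and one-carbon metabolism, 5 other amino acid enzymes and 9 amino acid transporters. Of the 35, 34 passed the filter on low counts and stood among the 16747 genes tested, out of 56953 gene identifiers in all. Gdf15, a secreted stress cytokine, was not tested: it reached at most 0.146 CPM (read counts scaled to library size) in any library. Slc7a11 was the one tested member with a mean below 1 CPM over all libraries.

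The genes were measured by strand-specific mRNA sequencing of natural killer (NK) cells, innate lymphocytes that kill infected and transformed cells, taken from mouse spleen. All cells were cultured for 7 days at 1% oxygen, so no group was kept in normal oxygen. The medium held 1700 U/ml recombinant human interleukin 2, L-glutamine and non-essential amino acids. No medium short of amino acids was named, and amino acid levels during the culture were not given in the sources used here. The flox groups, without Cre, had the genotypes Hif1a fl/fl, Ahr fl/f as the labels spell it, and Hif1a fl/fl with Ahr fl/f. The KO groups had the genotypes Ncr1 iCre with Hif1a fl/fl, Ncr1 iCre with Ahr fl/fl, and Ncr1 iCre with both Hif1a fl/fl and Ahr fl/fl. These are called here Hif1a KO, Ahr KO and Hif1a Ahr KO. Ncr1 iCre drives Cre recombinase from the locus of Ncr1, the NK cell receptor NKp46. Each of the 6 groups had 3 libraries labelled as biological replicates, 18 in all. The labels do not say whether replicates came from separate animals, so p-values measure the spread between these libraries. Every KO group carried Cre and no flox group did, so the loss of the gene and the presence of Cre cannot be told apart. The ages of the mice were not given in the sources used here.

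In the integrated stress response, kinases that sense lack of amino acids, unfolded protein, haem shortage or viral RNA phosphorylate the initiation factor eIF2. General translation then falls while the Atf4 mRNA is translated more, so the level of Atf4 mRNA is not a measure of ATF4 protein. ATF4 pairs with C/EBP proteins on a short DNA element and induces amino acid transporters, the enzymes that make asparagine, serine and proline, and feedback regulators. In activated NK cells and other lymphocytes, amino acid uptake through SLC7A5 with SLC3A2 and through SLC1A5 feeds growth. HIF-1α, the product of Hif1a, is the transcription factor stabilised by low oxygen, and the aryl hydrocarbon receptor, the product of Ahr, is a transcription factor activated by small ligands.

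The ATF4 and C/EBP element, with the core letters TGATGNAA, and the core letters bound by HIF and the aryl hydrocarbon receptor could be located in promoters of these genes. RefSeq promoter windows of GRCm38.p6, reaching from 250 bases before to 50 bases after the annotated start, were matched by symbol for 31 of the 35 members (38 windows, since some genes have several). Eif4ebp1, Slc7a5, Slc1a5 and Slc38a1 had no entry. Counting both strands, TGATGNAA (reverse TTNCATCA) stood in 10 of the 38 windows, or 26.32%, against 3.97% of 32851 windows of all genes. The 10 genes with it were Asns, Atf3, Chac1, Got1, Nupr1, Pycr1, Slc1a4, Slc7a11, Trib3 and Vldlr. The HIF core ACGTG stood in 26.32% of the member windows against 19.62% of all windows. The core GCGTG, shared by HIF and the aryl hydrocarbon receptor, stood in 65.79% against 32.39%, and the E-box CACGTG, which contains ACGTG, in 7.89% against 7.15%. Member windows had a median GC content of 59.7%, against 52.7% over all windows. Since the list was drawn up as ATF4 targets, these shares describe it, and a match is not a measured site.

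The 250 bases before the start of 6 members are shown 5′ to 3′ on the strand of the gene. The first 4, Asns, Pycr1, Nupr1 and Slc7a11, carry the ATF4 and C/EBP element, in capitals, and were higher in the Hif1a Ahr KO libraries. Stc2 and Mthfd1l carry no such match but do carry ACGTG or GCGTG on either strand, in capitals, and were lower in the Hif1a KO and Hif1a Ahr KO libraries. These 6 were chosen after their values were seen, and the letters do not sort the members by direction. Asns and Nupr1 also carry ACGTG, and Asns carries GCGTG, on either strand, left in lower case here. Vldlr, the member with the largest fall in Hif1a KO, carries the ATF4 and C/EBP element and neither of these cores. Asns lies at chr6:7693210-7693459, minus strand, Pycr1 at chr11:120643749-120643998, minus strand, Nupr1 at chr7:126625471-126625720, minus strand, Slc7a11 at chr3:50443614-50443863, minus strand, Stc2 at chr11:31370062-31370311, minus strand and Mthfd1l at chr10:3972825-3973074, plus strand.
Asns: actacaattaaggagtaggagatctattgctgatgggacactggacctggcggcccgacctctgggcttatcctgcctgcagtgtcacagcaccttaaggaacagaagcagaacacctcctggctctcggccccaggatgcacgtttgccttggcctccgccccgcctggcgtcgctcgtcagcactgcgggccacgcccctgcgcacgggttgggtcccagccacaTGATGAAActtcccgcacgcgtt
Pycr1: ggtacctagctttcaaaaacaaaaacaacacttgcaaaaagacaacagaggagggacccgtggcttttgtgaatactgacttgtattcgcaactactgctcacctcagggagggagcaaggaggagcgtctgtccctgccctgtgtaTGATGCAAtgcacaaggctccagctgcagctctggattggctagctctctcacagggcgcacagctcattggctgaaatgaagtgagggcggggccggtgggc
Nupr1: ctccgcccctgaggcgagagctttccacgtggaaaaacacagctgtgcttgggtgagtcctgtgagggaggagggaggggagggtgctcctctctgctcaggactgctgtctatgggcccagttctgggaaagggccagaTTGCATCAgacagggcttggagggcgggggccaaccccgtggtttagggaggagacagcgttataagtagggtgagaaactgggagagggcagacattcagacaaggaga
Slc7a11: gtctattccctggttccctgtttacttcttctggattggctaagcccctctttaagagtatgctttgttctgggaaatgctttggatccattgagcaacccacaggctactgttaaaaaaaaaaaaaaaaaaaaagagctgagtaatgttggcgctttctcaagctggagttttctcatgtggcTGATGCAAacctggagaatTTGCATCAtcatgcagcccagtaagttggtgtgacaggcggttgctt
Stc2: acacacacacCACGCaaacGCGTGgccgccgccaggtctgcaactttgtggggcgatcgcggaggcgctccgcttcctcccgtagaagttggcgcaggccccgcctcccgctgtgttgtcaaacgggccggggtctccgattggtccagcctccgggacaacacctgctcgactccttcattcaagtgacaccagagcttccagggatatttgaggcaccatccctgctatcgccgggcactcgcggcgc
Mthfd1l: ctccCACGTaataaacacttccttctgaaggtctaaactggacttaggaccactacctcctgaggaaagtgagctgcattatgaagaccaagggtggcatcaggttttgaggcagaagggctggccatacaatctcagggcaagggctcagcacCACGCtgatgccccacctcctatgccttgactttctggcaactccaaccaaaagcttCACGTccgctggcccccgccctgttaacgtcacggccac

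The Slc7a11 window holds the element on both strands, and in the Asns window it begins at position -23 counted from the start. In Pycr1 the match begins at -103 and in Nupr1 at -110.

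Library totals lay between 54420649 and 55732940 counts. The targeted genes were read first. The Hif1a count was higher in the Hif1a KO libraries (180 ± 32.0 CPM, SD, n = 3) than in Hif1a flox (60.3 ± 4.28 CPM), and higher in Hif1a Ahr KO than in Hif1a Ahr flox by 1.68 ± 0.11 (SE; adjusted p = 3.07e-09) on the log2 scale. The Ahr count was not called in any KO against flox comparison. Its mean was 31.6 ± 6.70 CPM (SD, n = 3) in Hif1a flox, 76.4 ± 2.35 in Ahr flox and 66.3 ± 13.1 in Hif1a Ahr flox. The part of these unlike flox levels in the comparisons between lines was not tested. A gene-level count also takes reads from outside the deleted part of a gene, so it does not check the deletion, and the groups are called KO as labelled.

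All 12 NK cell markers were above 0 in every group, and they moved in both directions. In Hif1a KO, 5 were called higher (Ncr1, Klrk1, Klrd1, Itga2 and Tbx21) and 5 lower (Eomes, Gzma, Gzmb, Prf1 and Tyrobp). Of the 12, 4 were higher in Hif1a Ahr KO (Ncr1, Klrb1c, Itga2 and Eomes) and 1, Gzma, was lower, and in Ahr KO 2, Ncr1 and Eomes, were higher. Ncr1, whose locus drives Cre in every KO group, rose by 0.92, 0.97 and 1.06 on the log2 scale in Hif1a KO, Ahr KO and Hif1a Ahr KO. The part of the Cre allele in that rise was not tested. The summed level of the 12 markers was 20114 to 22463 CPM in the Hif1a KO libraries against 27282 to 32141 in Hif1a flox, 22789 to 24607 CPM in Hif1a Ahr KO against 26138 to 30737 in Hif1a Ahr flox, and 31240 to 36923 CPM in Ahr KO against 25799 to 34700 in Ahr flox. The cytotoxic granule genes Gzma, Gzmb and Prf1 made up 85.2% to 91.8% of that sum in every library, so it mostly reflects these 3 genes.

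All 10 T cell markers were also above 0. Trbc1 made up 69.4% to 93.3% of their sum, which was 332 to 339 CPM in Hif1a KO against 402 to 452 in Hif1a flox, 344 to 363 CPM in Hif1a Ahr KO against 435 to 479.7 in Hif1a Ahr flox, and 373 to 402 CPM in Ahr KO against 425 to 449 in Ahr flox. Of the 10, 3 were lower in Hif1a KO (Cd3d, Cd3g and Trac), 2 in Ahr KO (Cd3d and Cd3g) and 2 in Hif1a Ahr KO (Cd3d and Cd3g), where Cd6 was higher. The log2 change of Cd3g was -3.12 ± 0.33 (SE) in Hif1a KO and -3.29 ± 0.33 in Hif1a Ahr KO, and that of Cd6 was 3.38 ± 0.78 in Hif1a Ahr KO.

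Markers of other cell types were scarce, and some were lower in the KO libraries. The 7 markers of macrophages and monocytes summed to 0.852 to 1.83 CPM in Hif1a KO against 4.18 to 9.90 in Hif1a flox, 2.31 to 4.57 CPM in Hif1a Ahr KO against 2.78 to 9.24 in Hif1a Ahr flox, and 6.80 to 10.4 CPM in Ahr KO against 4.35 to 5.98 in Ahr flox. Of the 3 that were tested, 3 were lower in Hif1a KO, 2 in Hif1a Ahr KO and 0 in Ahr KO. The 6 neutrophil markers summed to 0.0852 to 0.138 CPM in Hif1a KO against 1.13 to 4.91 in Hif1a flox, 0.207 to 0.423 CPM in Hif1a Ahr KO against 0.946 to 5.01 in Hif1a Ahr flox, and 0.525 to 1.35 CPM in Ahr KO against 0.495 to 1.57 in Ahr flox. Of the 4 that were tested, 3 were lower in Hif1a KO, 4 in Hif1a Ahr KO and 0 in Ahr KO. The 6 dendritic cell markers summed to 6.50 to 7.50 CPM in Hif1a KO against 5.35 to 6.29 in Hif1a flox, 7.64 to 10.4 CPM in Hif1a Ahr KO against 4.15 to 9.60 in Hif1a Ahr flox, and 6.11 to 7.92 CPM in Ahr KO against 4.06 to 6.68 in Ahr flox, and 1, Xcr1, was lower in Hif1a Ahr KO. Most of the dendritic cell sum in every library was Zbtb46, for example 6.79, 6.19 and 7.28 CPM in Hif1a KO replicates 1, 2 and 3, so it mostly reflects that gene. The 6 B cell markers summed to at most 1.27 CPM in any library, and Cd79b was lower in Ahr KO and Hif1a Ahr KO. Among the markers at 0 in all 3 libraries of a group were C1qa and C1qb in every KO group, Elane in Hif1a Ahr KO, Elane and Csf3r in Hif1a KO, Pax5 in Hif1a KO, Hif1a Ahr KO and Ahr flox, C1qa in Ahr flox and Cd209a in all groups. The part of these marker shifts in the results was not tested. In bulk libraries, fewer cells of a type and less RNA per cell cannot be told apart.

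The first question was whether NK cells with deletion of Hif1a, Ahr or both differed from the flox cells of their line in these genes. Most amino acid transporters and enzymes of the list were higher in Hif1a Ahr KO, where 21 of 34 members rose and 3 fell. Several of these rises were lost in a fit of the libraries of that line alone, as given below. The glycine transporter gene Slc6a9 had the largest rise, 2.48 ± 0.45 on the log2 scale, and the large neutral amino acid transporter gene Slc7a5 rose by 1.58 ± 0.22. In Hif1a KO, 10 members rose and 5 fell, led downward by Vldlr and Stc2. In Ahr KO no member passed the test in this fit, which does not pair libraries by replicate number. The Atf4 mRNA itself was not called in any of the 3 comparisons in this fit. With libraries paired by number, as described below, some members were called higher in Ahr KO, and Atf4 was called in Hif1a KO and Ahr KO.

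Rises and falls are calls at an adjusted p under 0.05 in edgeR's quasi-likelihood test, adjusted by Benjamini-Hochberg over all genes tested, and changes are log2 of KO over flox with their standard errors (SE). Of all genes tested, 17.6% were called higher and 17.8% lower in Hif1a KO. In Hif1a Ahr KO the shares were 14.8% higher and 16.5% lower, and in Ahr KO 2.14% higher and 4.78% lower. The 10 of 34 higher and 5 of 34 lower in Hif1a KO stand beside those shares. The median change of the members was 0.32 in Hif1a KO, 0.16 in Ahr KO and 0.53 in Hif1a Ahr KO, while that of all genes lay between -0.02 and 0.00. In Ahr KO, 3 members had an unadjusted p under 0.05. DESeq2 also called 0 there, and limma voom called 0 higher and 1 lower, Stc2.

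Replicate numbers carried weight in this design. In the Hif1a and Ahr lines, flox and KO libraries with the same number deviated together, and a fit with the number as a block within each line raised the counts of calls. With that block, 18 members were called higher and 9 lower in Hif1a KO, beside 20.3% and 20.4% of all genes, and 13 were called higher and 0 lower in Ahr KO, beside 6.17% and 8.29%. Blocked p-values are given below for these 2 lines where they change a call. Leaving out 1 library at a time gave 7 to 10 higher and 3 to 7 lower in Hif1a KO, and 12 to 22 higher and 3 to 4 lower in Hif1a Ahr KO. The 12 came without replicate 2 of Hif1a Ahr KO. A fit of the 6 libraries of the Hif1a Ahr line alone also called 12 higher. In Hif1a KO, the count of lower members was 3 without flox replicate 1, flox replicate 3 or KO replicate 2.

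By pattern of calls in the fit without the block, 9 members rose in both the Hif1a and the Hif1a Ahr line, and 3 (Stc2, Vldlr and Mthfd1l) fell in both. Another 12 rose in Hif1a Ahr KO and did not pass the test in Hif1a KO. Of these, the block called Trib3, Asns, Gpt2, Got1, Slc3a2, Slc1a4 and Slc6a9 higher and Pycr1 lower in Hif1a KO, so this pattern depends on the fit. Psph was called higher in Hif1a KO and in neither of the others. Ddit3 and Slc1a5 were called lower in Hif1a KO and in neither of the others. The 7 members that edgeR called in no line over all libraries without the block were Atf4, Atf3, Cebpb, Chac1, Ppp1r15a, Eif4ebp1 and Slc38a2. The share of all genes with each pattern was not computed, so these pattern counts only describe the members. In Hif1a Ahr KO, all 3 KO libraries lay above all 3 flox libraries for 19 members and below them for 4, beside 17.6% and 19.6% of all genes. In Hif1a KO these counts were 12 and 4, beside 24.8% and 25.1%, and in Ahr KO 5 and 1, beside 13.8% and 15.3%.

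**Figure D1:**
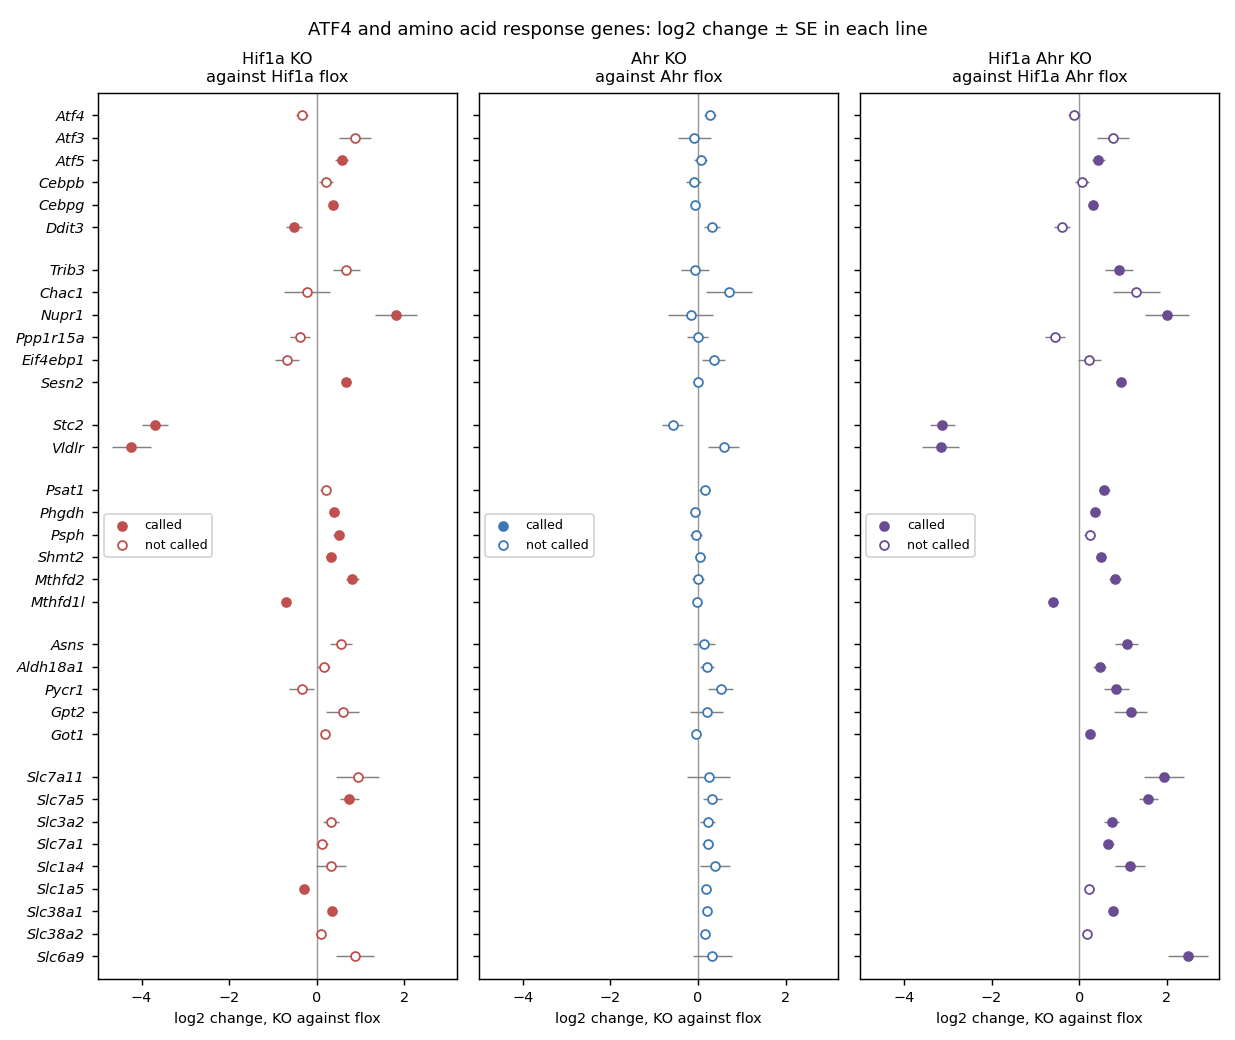
Log2 change of KO over flox (x axis) for the 34 tested members (y axis, grouped by role) in the 3 lines; bars are standard errors, filled points were called at adjusted p under 0.05 and open points were not. Vldlr and Stc2 lie far to the left in the Hif1a and Hif1a Ahr panels, and Slc6a9 lies farthest to the right, at 2.48, in the Hif1a Ahr panel.

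Among the 6 transcription factors, 2 rose and 1 fell in Hif1a KO and 2 rose in Hif1a Ahr KO. Atf4, the factor that names the response, had 413, 311 and 394 CPM in Hif1a flox replicates 1, 2 and 3 and 296, 258 and 334 CPM in Hif1a KO. The Hif1a Ahr libraries gave 278, 398 and 371 CPM in flox and 303, 364 and 301 in KO. The Ahr libraries gave 347, 419 and 355 CPM in flox and 432, 504.1 and 414 in KO. Groups overlapped in each line. The Atf4 changes were -0.33 ± 0.14 (SE; adjusted p = 0.0783) in Hif1a KO, 0.27 ± 0.14 (SE; adjusted p = 0.308) in Ahr KO and -0.11 ± 0.14 (SE; adjusted p = 0.6) in Hif1a Ahr KO. With the replicate block Atf4 was called lower in Hif1a KO (adjusted p = 0.00324) and higher in Ahr KO (adjusted p = 0.0303). The Hif1a KO change of Atf4 was also called on leaving out flox replicate 2 (adjusted p = 0.0255) or KO replicate 3 (0.0481).

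Atf5, a relative of Atf4 whose mRNA is under the same translational control, measured 7.16, 6.42 and 8.58 CPM in Hif1a flox and 11.3, 10.4 and 10.99 in Hif1a KO. In the Hif1a Ahr line it measured 6.41, 7.35 and 7.44 CPM in flox and 7.87, 12.4 and 8.39 in KO. All KO libraries stood above all flox libraries in both lines. Atf5 rose by 0.56 ± 0.15 (SE; adjusted p = 0.00674) in Hif1a KO and by 0.44 ± 0.15 (SE; adjusted p = 0.0346) in Hif1a Ahr KO, and its Ahr KO change was 0.06. The Hif1a Ahr call for Atf5 was lost in a fit of the 6 libraries of the line alone (adjusted p = 0.118) and on leaving out flox replicate 1 (0.118), flox replicate 2 (0.0556) or KO replicate 2 (0.299).

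Cebpg, a C/EBP protein that pairs with ATF4, had 55.6, 58.1 and 62.4 CPM in Hif1a flox and 68.9, 73.8 and 85.1 in Hif1a KO. The Hif1a Ahr libraries had 60.6, 63.1 and 56.9 CPM in flox and 71.4, 85.4 and 67.4 in KO. Groups did not overlap in either line. Cebpg rose by 0.37 ± 0.10 (SE; adjusted p = 0.00609) in Hif1a KO and by 0.31 ± 0.10 (SE; adjusted p = 0.0204) in Hif1a Ahr KO. The second call was lost in a fit of the 6 libraries of the line alone (adjusted p = 0.0576) and on leaving out flox replicate 3 (0.073) or KO replicate 2 (0.146). Its Ahr KO change was -0.07.

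Ddit3, which encodes CHOP, a factor of prolonged endoplasmic reticulum stress, went the other way in Hif1a KO. Its levels were 15.8, 11.9 and 20.5 CPM in Hif1a flox and 10.6, 10.8 and 12.1 in Hif1a KO. The flox libraries were spread widely, and flox replicate 2 lay below KO replicate 3. Ddit3 fell by 0.52 ± 0.18 (SE; adjusted p = 0.0355) on the log2 scale. That call was lost with no filter on low counts (adjusted p = 0.117), in a fit of the 6 libraries of the line alone (0.0602) and on leaving out flox replicate 1 (0.0712), flox replicate 3 (0.215), KO replicate 1 (0.103) or KO replicate 2 (0.099). In Hif1a Ahr KO the change was -0.38 ± 0.18 (SE; adjusted p = 0.129), and in Ahr KO 0.31 ± 0.18 (SE; adjusted p = 0.37). Atf3, a stress-induced repressor, gave 0.87 ± 0.37 (SE; adjusted p = 0.0857) in Hif1a KO and 0.77 ± 0.37 (SE; adjusted p = 0.137) in Hif1a Ahr KO, and the block called it higher in Hif1a KO (adjusted p = 0.000293). The Hif1a Ahr change was called for Ddit3 on leaving out flox replicate 1 (adjusted p = 0.0259) and for Atf3 on leaving out flox replicate 3 (adjusted p = 0.0377), and the Hif1a change of Atf3 was called by limma voom (adjusted p = 0.0386). Cebpb gave changes between -0.10 and 0.21 in the 3 lines, none of them called.

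Of the 6 stress effectors, 2 rose in Hif1a KO and 3 in Hif1a Ahr KO. Sesn2 encodes Sestrin 2, a leucine sensor that restrains mTORC1. It measured 36.3, 34.9 and 41.3 CPM in Hif1a flox against 63.3, 50.9 and 64.6 in Hif1a KO, and 31.5, 36.2 and 39.2 CPM in Hif1a Ahr flox against 62.2, 77.7 and 65.8 in Hif1a Ahr KO. In both lines every KO library was well above every flox library. Sesn2 rose by 0.67 ± 0.10 (SE; adjusted p = 6.86e-05) and by 0.94 ± 0.10 (SE; adjusted p = 1.77e-06). The Ahr libraries stayed between 35.6 and 40.1 CPM, with a change of -0.00 ± 0.10.

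Nupr1, a small stress-induced chromatin regulator, was low in flox cells, at 0.606, 0.287 and 1.34 CPM in Hif1a flox and 0.305, 0.978 and 0.492 in Hif1a Ahr flox. It reached 2.51, 1.84 and 3.43 CPM in Hif1a KO and 2.85, 3.00 and 1.28 in Hif1a Ahr KO, above all flox libraries of its line. Nupr1 rose by 1.80 ± 0.48 (SE; adjusted p = 0.00834) and by 2.01 ± 0.49 (SE; adjusted p = 0.00572), from few counts.

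Trib3, a pseudokinase that feeds back on ATF4, measured 16.5, 23.5 and 10.7 CPM in Hif1a Ahr flox and 32.0, 43.2 and 20.3 in Hif1a Ahr KO. Within each replicate number KO exceeded flox, but KO replicate 3 lay below flox replicate 2. Trib3 rose by 0.92 ± 0.32 (SE; adjusted p = 0.0438) in Hif1a Ahr KO. The call was lost with no filter on low counts (adjusted p = 0.11), in a fit of the 6 libraries of the line alone (0.167) and on leaving out flox replicate 1 (0.105), flox replicate 3 (0.149), KO replicate 1 (0.077) or KO replicate 2 (0.201). In Hif1a KO the change was 0.67 ± 0.32 (SE; adjusted p = 0.119), called with the block (adjusted p = 2.62e-06).

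Eif4ebp1, an inhibitor of cap-dependent translation, had changes of different sign in the 3 lines. It measured 40.3, 30.4 and 49.2 CPM in Hif1a flox and 24.5, 19.5 and 30.5 in Hif1a KO. The Hif1a Ahr libraries gave 27.5, 42.4 and 23.3 CPM in flox and 35.4, 48.5 and 25.5 in KO. None of the changes was called: -0.69 ± 0.27 (SE; adjusted p = 0.067) in Hif1a KO, 0.35 ± 0.27 (SE; adjusted p = 0.528) in Ahr KO and 0.23 ± 0.27 (SE; adjusted p = 0.569) in Hif1a Ahr KO. With the block Eif4ebp1 was called lower in Hif1a KO (adjusted p = 1.02e-05) and higher in Ahr KO (adjusted p = 0.0049). The Hif1a KO change of Eif4ebp1 was also called with a filter at a mean of 1 CPM (adjusted p = 0.0483), by DESeq2 (0.0473), by limma voom (0.0405) and on leaving out flox replicate 2 (0.0402).

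Chac1, which degrades glutathione, and Ppp1r15a, the phosphatase subunit that reverses eIF2 phosphorylation, were not called. Chac1 changed by -0.23 ± 0.53, 0.71 ± 0.52 and 1.30 ± 0.53 in Hif1a KO, Ahr KO and Hif1a Ahr KO, with wide spread in each group. Its 3 Hif1a Ahr KO libraries, at 10.0, 20.1 and 10.9 CPM, lay above the flox libraries at 4.13, 9.43 and 3.09 (adjusted p = 0.08). That change was called by DESeq2 (adjusted p = 0.0454), by limma voom (0.0261) and on leaving out flox replicate 2 (0.0271). Blocked, Chac1 was called higher in Ahr KO (adjusted p = 0.0029). Ppp1r15a changed by -0.38 ± 0.23, -0.01 ± 0.23 and -0.55 ± 0.23. All 3 of its Hif1a Ahr KO libraries lay below flox (adjusted p = 0.0856), and the block called it lower in Hif1a KO (adjusted p = 0.000471). The Hif1a Ahr change of Ppp1r15a was called by DESeq2 (adjusted p = 0.0285) and in a fit of the 6 libraries of the line alone (0.0026).

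The 2 tested secreted or receptor genes were the most strongly lowered members. Stc2 encodes stanniocalcin 2, a secreted glycoprotein, and Vldlr the very low density lipoprotein receptor; both are also known as genes induced in low oxygen. Stc2 fell from 12.0, 16.7 and 22.5 CPM in Hif1a flox to 1.31, 1.88 and 0.760 in Hif1a KO, and from 20.0, 17.98 and 19.1 CPM in Hif1a Ahr flox to 2.78, 1.36 and 2.41 in Hif1a Ahr KO. No KO library came near a flox library of its line. The Stc2 changes were -3.69 ± 0.30 (SE; adjusted p = 3.1e-07) and -3.12 ± 0.28 (SE; adjusted p = 1.03e-06). In the Ahr line Stc2 measured 27.8, 33.6 and 29.1 CPM in flox and 20.5, 18.4 and 21.8 in KO, all KO libraries below all flox libraries, with a change of -0.58 ± 0.24 (SE; adjusted p = 0.191). That change was not called, although limma voom (adjusted p = 0.0485) and a fit of the 6 Ahr libraries alone (adjusted p = 0.00479) called it.

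Vldlr fell from 8.76, 6.38 and 11.4 CPM in Hif1a flox to 0.622, 0.239 and 0.548 in Hif1a KO, and from 4.74, 10.0 and 3.58 CPM in Hif1a Ahr flox to 0.914, 0.727 and 0.402 in Hif1a Ahr KO. Groups were again fully apart. Its changes were -4.23 ± 0.45 (SE; adjusted p = 5.6e-06) and -3.17 ± 0.43 (SE; adjusted p = 6.02e-05). In the Ahr line all KO libraries, at 13.1, 13.5 and 13.4 CPM, stood above the flox libraries, at 6.48, 11.1 and 9.05, but the change of 0.59 ± 0.35 (SE; adjusted p = 0.381) was called with the block alone among the settings tried (adjusted p = 0.0499).

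**Figure D2:**
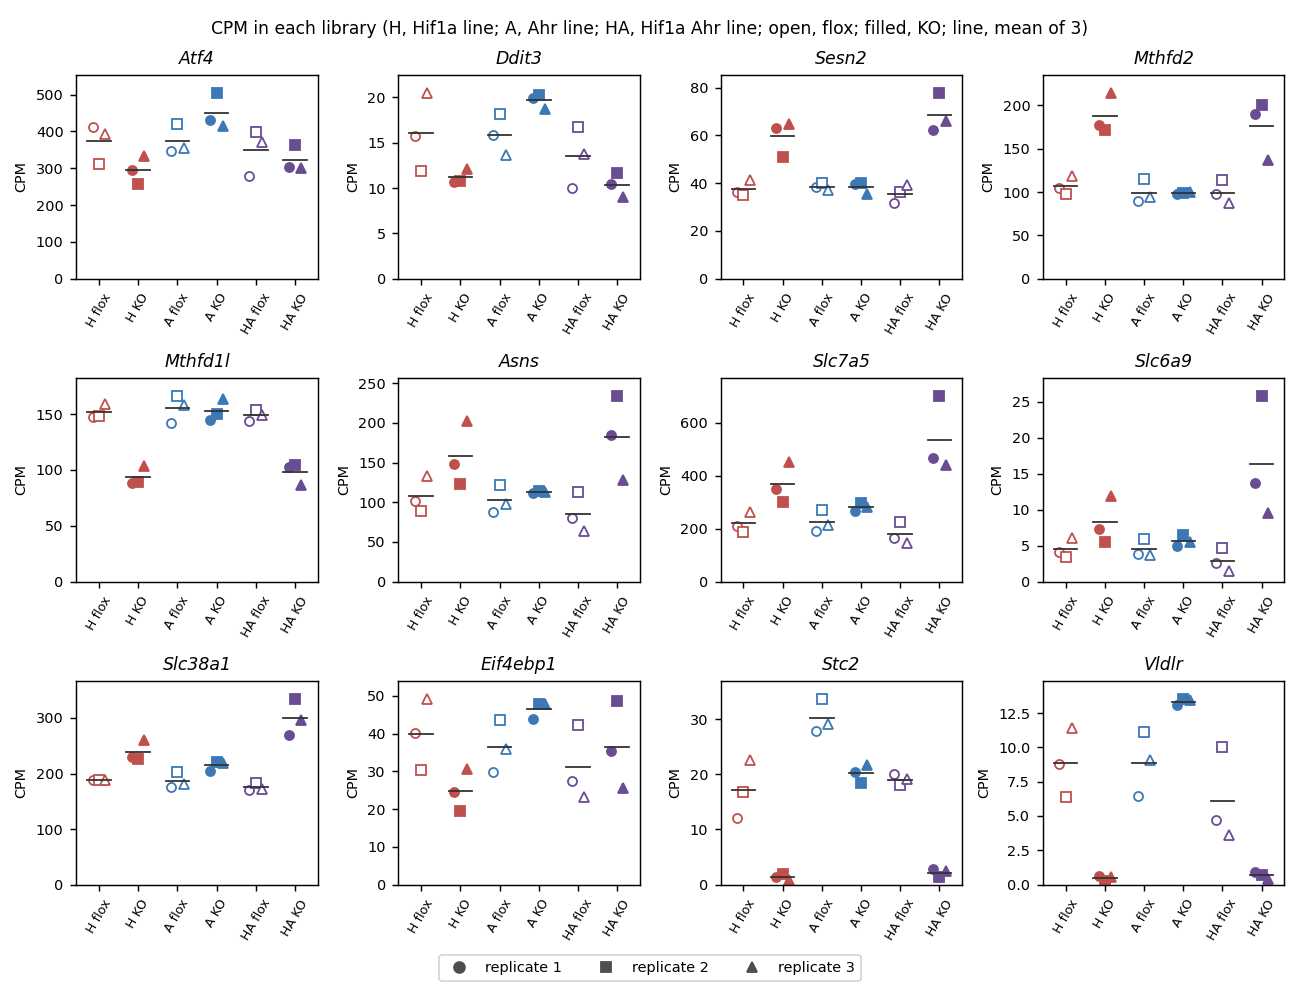
TMM-scaled CPM (y axis, from 0) of 12 members in each library of the 6 groups (x axis; H, Hif1a line; A, Ahr line; HA, Hif1a Ahr line); open symbols are flox, filled symbols KO, the symbol shape gives the replicate number and the short line the mean of 3. Stc2 and Vldlr sit near 0 in both groups labelled as KO for Hif1a, while for Asns, Slc7a5 and Slc6a9 replicate 2 of Hif1a Ahr KO is the highest library of all.

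Of the 6 enzymes of serine and one-carbon metabolism, 4 rose and 1 fell in Hif1a KO, and 4 rose and 1 fell in Hif1a Ahr KO. PHGDH, PSAT1 and PSPH make serine from a glycolytic intermediate, and SHMT2, MTHFD2 and MTHFD1L carry its one-carbon unit through the mitochondrion to formate. Mthfd2 rose in both lines and Mthfd1l, which acts after it, fell in both.

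Mthfd2 measured 105, 97.2 and 119 CPM in Hif1a flox and 178, 172 and 214 in Hif1a KO. In the Hif1a Ahr line it measured 97.3, 114 and 87.2 CPM in flox and 191, 200.4 and 137 in KO. Every KO library was above every flox library. Mthfd2 rose by 0.81 ± 0.14 (SE; adjusted p = 0.000247) and by 0.82 ± 0.14 (SE; adjusted p = 0.000272). In Ahr KO its change was -0.00 ± 0.14.

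Mthfd1l measured 147, 149 and 159 CPM in Hif1a flox and 88.6, 89.2 and 103 in Hif1a KO, and 143, 154 and 149.5 CPM in Hif1a Ahr flox and 103, 104 and 86.7 in Hif1a Ahr KO. Its replicates were close together and the groups far apart. The changes were -0.69 ± 0.08 (SE; adjusted p = 4.3e-06) and -0.60 ± 0.08 (SE; adjusted p = 2.1e-05), and -0.03 ± 0.08 in Ahr KO.

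Phgdh rose from 232, 233 and 265 CPM to 309, 298 and 349 in the Hif1a line, by 0.39 ± 0.11 (SE; adjusted p = 0.00893), with no overlap. In the Hif1a Ahr line Phgdh measured 208, 242 and 251 CPM in flox and 347, 312 and 247 in KO, where KO replicate 3 fell among the flox libraries. That rise was 0.37 ± 0.11 (SE; adjusted p = 0.0149). The Hif1a call was lost on leaving out KO replicate 3 (adjusted p = 0.051) and the Hif1a Ahr call in a fit of the 6 libraries of the line alone (adjusted p = 0.0769) and on leaving out flox replicate 1 (0.0772), KO replicate 1 (0.0859) or KO replicate 2 (0.0555).

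Psph rose from 30.1, 29.4 and 33.9 CPM to 40.1, 40.6 and 51.0 in the Hif1a line, by 0.50 ± 0.13 (SE; adjusted p = 0.00644). In Hif1a Ahr KO it measured 41.4, 35.9 and 27.97 CPM against 27.3, 31.3 and 30.6 in flox, and the change of 0.24 ± 0.13 (SE; adjusted p = 0.181) was not called over all libraries, but was on leaving out KO replicate 3 (adjusted p = 0.0282). Psat1 showed the reverse order of calls. It measured 205, 232 and 185 CPM in Hif1a Ahr flox and 300.5, 366 and 256 in Hif1a Ahr KO, a rise of 0.57 ± 0.13 (SE; adjusted p = 0.00265), while its Hif1a KO change was 0.20 ± 0.13 (SE; adjusted p = 0.255).

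Shmt2 rose from 205, 199.9 and 226 CPM to 246, 237 and 302 in the Hif1a line and from 185, 209.6 and 201 CPM to 282, 322 and 235 in the Hif1a Ahr line. Groups did not overlap. The changes were 0.32 ± 0.11 (SE; adjusted p = 0.0258) and 0.49 ± 0.11 (SE; adjusted p = 0.00167). The Hif1a call for Shmt2 was lost on leaving out flox replicate 1 (adjusted p = 0.081), flox replicate 2 (0.0875) or KO replicate 3 (0.173). In Ahr KO the 6 enzymes changed by between -0.08 (Phgdh) and 0.15 (Psat1), none called.

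The 5 other amino acid enzymes all rose in Hif1a Ahr KO, and none was called in Hif1a KO or Ahr KO in the fit without the block. Asns encodes asparagine synthetase, the classic target of the amino acid response. It measured 80.2, 113 and 63.9 CPM in Hif1a Ahr flox and 185, 234 and 128 in Hif1a Ahr KO, where the lowest KO library was replicate 3 and still exceeded the highest flox library. Asns rose by 1.09 ± 0.26 (SE; adjusted p = 0.00596). In the Hif1a line it measured 101, 88.7 and 133 CPM in flox and 148, 123 and 203 in KO, KO above flox for each replicate number but with overlapping groups. That change was 0.55 ± 0.26 (SE; adjusted p = 0.117), called with the block (adjusted p = 6.86e-05).

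Aldh18a1 and Pycr1 encode the first and last enzymes of proline synthesis from glutamate. Aldh18a1 measured 134, 164 and 112 CPM in Hif1a Ahr flox and 199, 214 and 153 in Hif1a Ahr KO, with overlap, and rose by 0.47 ± 0.15 (SE; adjusted p = 0.032). Pycr1 measured 6.10, 9.66 and 4.65 CPM in flox and 11.6, 15.5 and 9.49 in KO, with KO replicate 3 just below flox replicate 2, and rose by 0.84 ± 0.29 (SE; adjusted p = 0.0371). The Aldh18a1 call was lost with no filter on low counts (adjusted p = 0.111), in a fit of the 6 libraries of the line alone (0.0812) and on leaving out flox replicate 1 (0.0841), flox replicate 3 (0.133), KO replicate 1 (0.0852) or KO replicate 2 (0.141). The Pycr1 call was lost with no filter on low counts (adjusted p = 0.116), in a fit of the 6 libraries of the line alone (0.0862) and on leaving out flox replicate 1 (0.112), flox replicate 3 (0.137), KO replicate 1 (0.0562) or KO replicate 2 (0.163). In Hif1a KO, Pycr1 changed by -0.34 ± 0.29 (SE; adjusted p = 0.396) and was called lower with the block (adjusted p = 0.0227). In Ahr KO, the block called Pycr1 (adjusted p = 0.0077) and Aldh18a1 (adjusted p = 0.0332) higher.

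Gpt2, the mitochondrial alanine aminotransferase gene, measured 8.21, 14.8 and 5.26 CPM in Hif1a Ahr flox and 24.1, 26.7 and 13.2 in Hif1a Ahr KO, with overlap. Gpt2 rose by 1.18 ± 0.38 (SE; adjusted p = 0.0289). Its call was lost with no filter on low counts (adjusted p = 0.0754), in a fit of the 6 libraries of the line alone (0.139) and on leaving out flox replicate 1 (0.0911), flox replicate 3 (0.0995), KO replicate 1 (0.069) or KO replicate 2 (0.112). Got1, the cytosolic aspartate aminotransferase gene, measured 63.7, 71.3 and 74.5 CPM in flox and 78.2, 91.3 and 80.0 in KO, with little spread and no overlap, and rose by 0.25 ± 0.07 (SE; adjusted p = 0.0134). The Got1 call was lost in a fit of the 6 libraries of the line alone (adjusted p = 0.0874) and on leaving out flox replicate 1 (0.0733) or KO replicate 2 (0.0975). In Hif1a KO, Gpt2 changed by 0.59 ± 0.37 and Got1 by 0.18 ± 0.07, and the block called both higher (adjusted p = 0.00265 and 0.0295). A fit of the 6 libraries of the Hif1a line alone also called Got1 (adjusted p = 0.0428).

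Of the 9 transporters, 7 rose in Hif1a Ahr KO, against 2 higher and 1 lower in Hif1a KO. Slc7a5 encodes LAT1, which imports leucine and other large neutral amino acids, and Slc3a2 encodes CD98, its heavy chain. Slc7a5 measured 164, 225 and 147 CPM in Hif1a Ahr flox and 466, 699.6 and 438 in Hif1a Ahr KO. In the Hif1a line it measured 211, 187 and 263 CPM in flox and 348, 302 and 453 in KO. KO libraries were above flox libraries throughout in both lines. The rises were 1.58 ± 0.22 (SE; adjusted p = 7.81e-05) and 0.74 ± 0.21 (SE; adjusted p = 0.0152). The Hif1a call was lost with no filter on low counts (adjusted p = 0.0501) and on leaving out flox replicate 1 (0.0529), flox replicate 2 (0.0641) or KO replicate 3 (0.0744).

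In the Ahr line Slc7a5 measured 191, 269 and 212 CPM in flox and 265, 296 and 279.6 in KO, a change of 0.32 ± 0.21 (SE; adjusted p = 0.45) that was called with the block (adjusted p = 0.00352). Slc3a2 measured 181, 225 and 161 CPM in Hif1a Ahr flox and 322, 376 and 249.1 in Hif1a Ahr KO, with no overlap, and rose by 0.74 ± 0.17 (SE; adjusted p = 0.00443). In Hif1a KO its change was 0.32 ± 0.17 (SE; adjusted p = 0.169). The block called Slc3a2 higher in Hif1a KO (adjusted p = 0.000954) and in Ahr KO (adjusted p = 0.0215).

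Slc6a9 encodes the glycine transporter GlyT1. Its levels were 2.66, 4.64 and 1.47 CPM in Hif1a Ahr flox and 13.7, 25.8 and 9.54 in Hif1a Ahr KO. Replicate 2 was the highest of both groups, and the groups stood well apart. Slc6a9 rose by 2.48 ± 0.45 (SE; adjusted p = 0.000893). In the Hif1a line it measured 4.07, 3.48 and 6.12 CPM in flox and 7.33, 5.54 and 11.9 in KO, a change of 0.86 ± 0.43 (SE; adjusted p = 0.146) that was called with the block (adjusted p = 4.79e-05). In Ahr KO its change was 0.33 ± 0.44.

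Slc38a1 encodes SNAT1, a sodium-coupled importer of glutamine and other small neutral amino acids. It measured 189, 189 and 188 CPM in Hif1a flox and 230.4, 226 and 261 in Hif1a KO, and 170.0, 182 and 173 CPM in Hif1a Ahr flox and 270.0, 334 and 296 in Hif1a Ahr KO. Groups did not overlap. Slc38a1 rose by 0.34 ± 0.08 (SE; adjusted p = 0.00215) and by 0.78 ± 0.08 (SE; adjusted p = 6.38e-07). Its Ahr libraries gave 176, 203 and 181 CPM in flox and 204, 220.4 and 219 in KO, also without overlap, and a change of 0.20 ± 0.08 (SE; adjusted p = 0.138), called with the block (adjusted p = 0.0368). Its relative Slc38a2 (SNAT2) changed by 0.10 ± 0.07, 0.17 ± 0.07 and 0.17 ± 0.07 in Hif1a KO, Ahr KO and Hif1a Ahr KO, none called. The block called Slc38a2 higher in Ahr KO (adjusted p = 0.0496), and its Hif1a Ahr change was called by DESeq2 (adjusted p = 0.0391) and on leaving out flox replicate 2 (0.0295).

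Slc1a5 encodes ASCT2, a neutral amino acid exchanger that carries glutamine, and Slc1a4 its relative ASCT1. Slc1a5 measured 449.6, 413 and 472 CPM in Hif1a flox and 387, 313 and 383 in Hif1a KO, all KO libraries below all flox libraries. It fell by 0.30 ± 0.10 (SE; adjusted p = 0.0317) on the log2 scale. The call was lost on leaving out flox replicate 1 (adjusted p = 0.0793), flox replicate 3 (0.119) or KO replicate 2 (0.171). In the Hif1a Ahr line Slc1a5 measured 356, 447 and 413 CPM in flox and 422, 538 and 467 in KO, a change of 0.23 ± 0.10 (SE; adjusted p = 0.103) that was not called over all libraries, but was on leaving out KO replicate 1 (adjusted p = 0.0397). In Ahr KO its change was 0.19 ± 0.10 (SE; adjusted p = 0.327), called with the block (adjusted p = 0.0332).

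Slc1a4 measured 16.8, 28.5 and 11.8 CPM in Hif1a Ahr flox and 40.1, 56.6 and 30.3 in Hif1a Ahr KO, with no overlap but wide spread, and rose by 1.15 ± 0.34 (SE; adjusted p = 0.0211). That call was lost with no filter on low counts (adjusted p = 0.0535), in a fit of the 6 libraries of the line alone (0.104) and on leaving out flox replicate 1 (0.0708), flox replicate 3 (0.0785) or KO replicate 2 (0.102). Slc1a4 changes were 0.32 ± 0.34 in Hif1a KO and 0.39 ± 0.34 in Ahr KO, called with the block (adjusted p = 0.00924 and 0.00631).

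Slc7a1, the cationic amino acid transporter that carries arginine and lysine, measured 163, 183 and 131 CPM in Hif1a Ahr flox and 233, 293 and 232 in Hif1a Ahr KO. No library overlapped, and Slc7a1 rose by 0.67 ± 0.13 (SE; adjusted p = 0.000782). Its changes were 0.12 ± 0.13 in Hif1a KO and 0.23 ± 0.13 in Ahr KO, the second called with the block (adjusted p = 0.037). Slc7a11, the cystine and glutamate exchanger, was scarce: at most 0.566 CPM in any flox library and 1.101, 1.87 and 0.752 CPM in Hif1a Ahr KO. There it rose by 1.93 ± 0.45 (SE; adjusted p = 0.00334), and its Hif1a KO change was 0.94 ± 0.49 (SE; adjusted p = 0.153).

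Whether the 3 lines differed in their response was tested on the difference of effects. The effect in the Hif1a line minus that in the Ahr line was called for 12 of 34 members, 6 more positive and 6 more negative, beside 32.3% of all genes. Sesn2, Mthfd2, Nupr1, Psph, Phgdh and Cebpg had the more positive effect in the Hif1a line, and Vldlr, Stc2, Ddit3, Mthfd1l, Atf4 and Slc1a5 the more negative. With the replicate block 22 members were called, beside 37.8% of all genes. Leaving out 1 library gave 7 to 11, and the 7 came without replicate 1 of Hif1a flox, replicate 3 of Ahr flox or replicate 2 of Ahr KO.

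Between the Hif1a Ahr line and the Hif1a line, the effect differed for 2 members, beside 9.63% of all genes. Slc1a5 was more positive in the Hif1a Ahr line by 0.53 ± 0.15 (SE; adjusted p = 0.031) and Slc38a1 by 0.43 ± 0.11 (SE; adjusted p = 0.0202), both with edgeR on the log2 scale. Neither is among the 12 members that were called in the Hif1a Ahr line and not in the Hif1a line, so for those 12 the difference between lines did not pass this test. For Slc6a9 that difference was 1.62 ± 0.62 (adjusted p = 0.114) and for Slc7a5 0.84 ± 0.30 (adjusted p = 0.0949). The count of 2 became 0 without replicate 2 of Hif1a KO, replicate 1 of Hif1a Ahr flox or replicate 2 of Hif1a Ahr KO, and 8 without replicate 2 of Hif1a Ahr flox.

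The Hif1a Ahr effect was also set against the sum of the single effects on the log2 scale. With edgeR 0 of 34 members departed from that sum, beside 0.0358% of all genes; 1 had an unadjusted p under 0.05, and DESeq2 and limma voom also called 0. The median departure was 0.23, and the SE of a departure is wider than that of a single effect. The largest was that of Slc6a9, at 1.30 ± 0.76 (SE; adjusted p = 0.867).

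The 3 flox groups were compared with each other as a check of the baselines of the members. With edgeR 0 of 34 members differed, beside 0.245% of all genes; 1 had an unadjusted p under 0.05, and DESeq2 and limma voom called 0. The highest flox mean was 1.04 to 1.77 times the lowest. For 28 of the 34 members the lowest of the 3 flox means was that of Hif1a Ahr flox. That order was not tested across members, which share their libraries. For Slc6a9 the flox means were 4.56 ± 1.39 CPM in the Hif1a line, 4.51 ± 1.28 in the Ahr line and 2.93 ± 1.60 in the Hif1a Ahr line (SD, n = 3).

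Within groups the members also moved together from library to library. The median member stood 0.15 above its group mean in replicate 3 of Hif1a flox and 0.18 above it in replicate 3 of Hif1a KO, on the scale of log2(CPM + 0.5). In the replicates numbered 2 of these groups the median member stood at -0.15 and -0.17. In the Hif1a Ahr line the median member stood 0.20 above the mean in replicate 2 of both flox and KO, and at -0.25 in KO replicate 3. In replicate 2 of Ahr flox the median member was 0.20 above the mean, and in the Ahr KO libraries it lay between -0.05 and 0.05. The T cell marker Cd8a was highest in Hif1a Ahr KO replicate 3 (8.44 CPM), Hif1a KO replicate 2 (4.09) and Hif1a flox replicate 2 (3.35). Trbc1 was the lowest of its group in each of them. In Ahr flox replicate 1 the median member stood at -0.15, with Cd8a at 0.104 CPM. The part of T cell RNA in these shifts was not tested. The median over all genes lay between -0.01 and 0.01 in every library. For 25 of 34 members in the Hif1a line, 26 in the Ahr line and 26 in the Hif1a Ahr line, the highest flox and the highest KO library had the same number. That share was not computed over all genes, so it is not a trait shown to be particular to the members. KO exceeded flox in all 3 numbered pairs for 23 members in the Hif1a line, 15 in the Ahr line and 25 in the Hif1a Ahr line, beside 32.8%, 27.7% and 26.1% of all genes tested. It exceeded flox in 0 of 3 pairs for 10, 4 and 4 members, beside 33.5%, 27.2% and 28.3% of all genes. Members share libraries, so these counts are descriptions and carry no p-value.

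**Figure D3:**
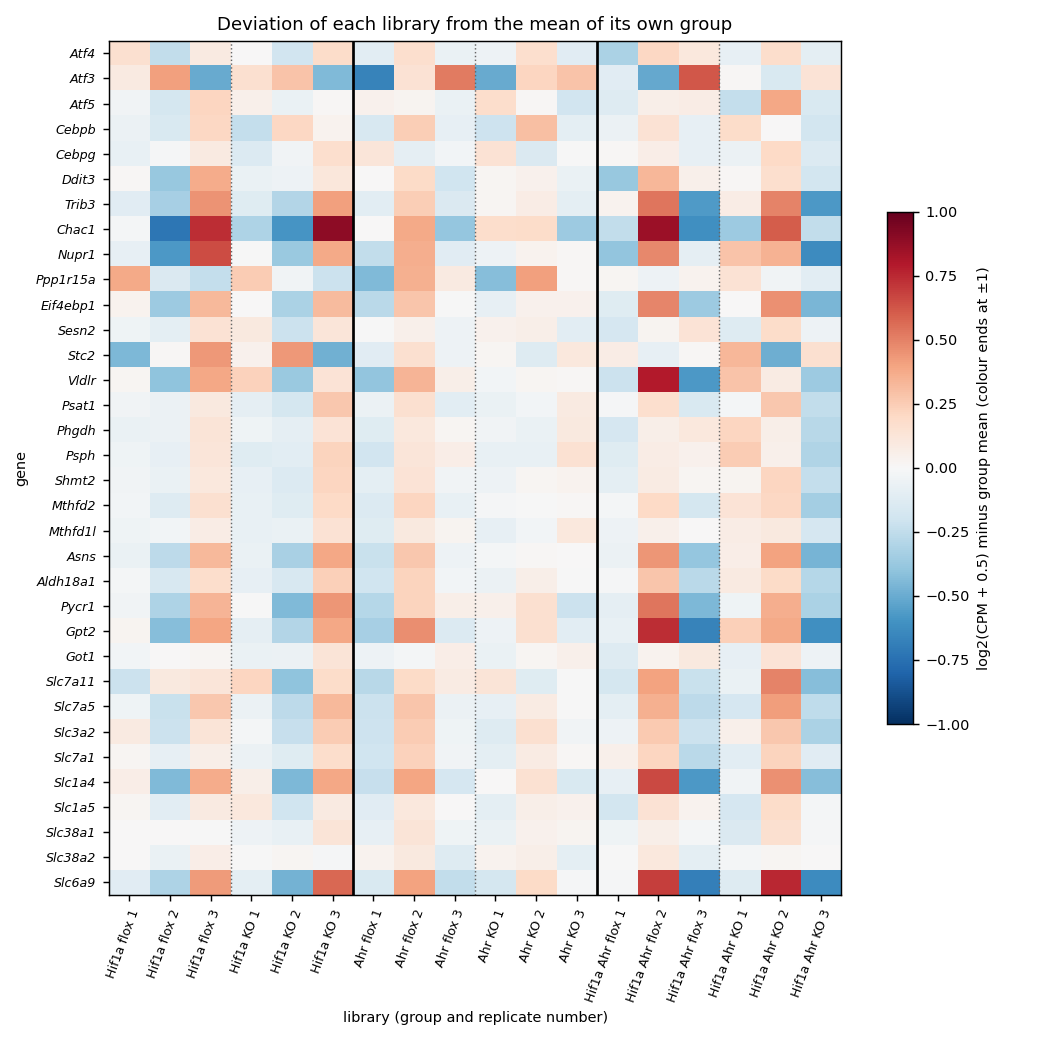
Deviation of each of the 34 members (y axis) from the mean of its own group, in log2(CPM + 0.5), for each of the 18 libraries (x axis); red is above and blue below the group mean, and colours end at 1 and -1. Columns for replicate 3 of both Hif1a groups and replicate 2 of Ahr flox and both Hif1a Ahr groups are mostly red, and that for replicate 3 of Hif1a Ahr KO is mostly blue.

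Other genes of the pathway were read from lists drawn up with earlier results known, and their counts stand beside the shares of all genes given above. The cytosolic aminoacyl-tRNA synthetases, which charge tRNAs with amino acids, numbered 20. In Hif1a Ahr KO 7 rose and 1 fell, in Hif1a KO 3 rose and 2 fell, and in Ahr KO none passed the test (0 also at an unadjusted p under 0.05, and 2 called higher with the block). Mars1 rose by 0.46 (adjusted p = 0.000374) in Hif1a KO and by 0.47 (adjusted p = 0.000375) in Hif1a Ahr KO. Aars1 rose by 0.39 (adjusted p = 0.0181) and by 0.59 (adjusted p = 0.00119), and Wars1 by 0.32 (adjusted p = 0.0183) and by 0.50 (adjusted p = 0.00108). The list median was 0.00, 0.08 and 0.20 in Hif1a KO, Ahr KO and Hif1a Ahr KO. The 7 became 4 without replicate 2 of Hif1a Ahr KO, and 4 in a fit of the 6 Hif1a Ahr libraries alone. The 3 became 1 without replicate 2 of Hif1a flox or replicate 3 of Hif1a KO and 5 with the block.

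Of 15 genes for the eIF2 kinases, eIF2 and its exchange factor eIF2B, 2 rose and 3 fell in Hif1a KO, 1 rose in Ahr KO, and 2 rose and 1 fell in Hif1a Ahr KO. The list medians lay between -0.08 and 0.05. Eif2ak2, the kinase PKR, rose by 0.27 (adjusted p = 0.0144) in Hif1a KO, and Eif2ak3, the kinase PERK of the endoplasmic reticulum, changed by -0.56 (adjusted p = 0.0483). Eif2b4 rose by 0.35 (adjusted p = 0.0239) in Ahr KO and by 0.36 (adjusted p = 0.00482) in Hif1a Ahr KO. In Hif1a KO the 3 falls became 0 without flox replicate 3 or KO replicate 2, or with no filter on low counts, and 1 without each of the other 4 libraries; the 2 rises became 0 without flox replicate 1 and 1 without flox replicate 2, KO replicate 2 or KO replicate 3. The Ahr KO call was lost without replicate 1 of Ahr flox, KO replicate 1 or KO replicate 2, and in Hif1a Ahr KO leaving out 1 library gave 1 to 2 rises and 0 to 2 falls.

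The ATF6 and XBP1 branch of the unfolded protein response, which raises chaperones of the endoplasmic reticulum, went down in Hif1a KO: of 19 genes 14 fell and 3 rose. Calr changed by -0.98 (adjusted p = 1.05e-07), Sdf2l1 by -0.84 (adjusted p = 3.38e-08), Hyou1 by -0.68 (adjusted p = 4.36e-06) and Creld2 by -0.97 (adjusted p = 6.58e-06). In Hif1a Ahr KO 7 fell, among them Calr at -0.51 (adjusted p = 0.000156), and 4 rose, among them the sensor genes Atf6 at 0.33 (adjusted p = 6.51e-05) and Ern1 at 0.41 (adjusted p = 0.00184). In Ahr KO 4 rose and none fell, led by Hyou1 at 0.36 (adjusted p = 0.0115), and 12 rose with the block. The list medians were -0.56, 0.23 and -0.11 in Hif1a KO, Ahr KO and Hif1a Ahr KO. The 4 in Ahr KO became 0 without replicate 1 of Ahr flox, replicate 3 of Ahr flox or replicate 2 of Ahr KO, 2 without replicate 1 of Ahr KO, 1 without replicate 3 of Ahr KO and 8 without replicate 2 of Ahr flox, and DESeq2 called 10. The 3 higher in Hif1a KO became 1 without replicate 1 of Hif1a flox or replicate 3 of Hif1a KO.

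Among 18 further ATF4 targets, 4 rose and 5 fell in Hif1a KO, 1 rose and 1 fell in Ahr KO, and 6 rose and 2 fell in Hif1a Ahr KO. Gadd45a, a growth arrest gene, rose by 1.15 (adjusted p = 0.000234) in Hif1a KO and changed by -1.25 (adjusted p = 0.00133) in Ahr KO and by -1.01 (adjusted p = 0.00117) in Hif1a Ahr KO. Jdp2 rose by 0.84 (adjusted p = 0.0122) in Hif1a KO and by 1.32 (adjusted p = 0.000713) in Hif1a Ahr KO, and Pck2, the mitochondrial phosphoenolpyruvate carboxykinase, by 0.69 (adjusted p = 0.0381) and 1.05 (adjusted p = 0.00469). Nfil3, a factor needed for NK cell development, changed by -1.16 (adjusted p = 3.37e-06) and -0.70 (adjusted p = 0.00052), both falls. The 6 became 2 without replicate 2 of Hif1a Ahr KO and 1 in a fit of the 6 Hif1a Ahr libraries alone. The 4 became 1 without replicate 2 of Hif1a flox or replicate 3 of Hif1a KO, and 2 without replicate 1 of Hif1a flox or replicate 1 of Hif1a KO, or with no filter on low counts. With the block, 4 rose and 2 fell in Ahr KO.

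Of 17 other one-carbon and glycine enzymes, 4 rose and 1 fell in Hif1a KO and 3 rose and 2 fell in Hif1a Ahr KO. Tyms, thymidylate synthase, rose by 0.53 (adjusted p = 0.0015) in Hif1a KO. Aldh1l1, the cytosolic formyltetrahydrofolate dehydrogenase, changed by -1.72 (adjusted p = 2.1e-05) in Hif1a KO and -1.32 (adjusted p = 0.000279) in Hif1a Ahr KO. Gcsh, of the glycine cleavage system, rose by 0.96 (adjusted p = 0.000969) in Hif1a Ahr KO. In Ahr KO none was called, and 5 had an unadjusted p under 0.05. The 4 became 2 without replicate 1 of Hif1a flox or replicate 3 of Hif1a KO.

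Of 15 other enzymes of glutamine, aspartate, proline and arginine, 4 rose and 2 fell in Hif1a KO, 1 fell in Ahr KO, and 4 rose and 2 fell in Hif1a Ahr KO. Ass1, argininosuccinate synthase, rose by 1.26 (adjusted p = 0.000105) in Hif1a KO and by 1.34 (adjusted p = 6.25e-05) in Hif1a Ahr KO, while Asl, the next enzyme, changed by -0.56 (adjusted p = 1.07e-05) and -0.52 (adjusted p = 2.53e-05). Glul, glutamine synthetase, rose by 0.70 (adjusted p = 0.000142) in Hif1a KO and changed by -0.41 (adjusted p = 0.0406) in Ahr KO. The 4 higher in Hif1a Ahr KO became 2 without replicate 1 of Hif1a Ahr flox or replicate 2 of Hif1a Ahr KO, or with no filter on low counts, and 1 in a fit of the 6 Hif1a Ahr libraries alone. The single call in Ahr KO was lost in every fit without an Ahr library other than that without replicate 2 of Ahr flox.

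Of 16 other amino acid transporters, 2 rose and 3 fell in Hif1a KO, 1 rose and 1 fell in Ahr KO, and 5 rose and 2 fell in Hif1a Ahr KO. Slc7a7, a light chain that also pairs with SLC3A2, rose by 0.72 (adjusted p = 0.00301) in Hif1a KO and by 1.17 (adjusted p = 4.95e-05) in Hif1a Ahr KO. Slc38a7 rose by 0.92 (adjusted p = 1.41e-05) in Hif1a Ahr KO. Slc16a10, an aromatic amino acid transporter, rose by 0.48 (adjusted p = 0.00568) in Ahr KO and by 0.55 (adjusted p = 0.000322) in Hif1a Ahr KO, and changed by -0.26 (adjusted p = 0.044) in Hif1a KO. The 5 became 3 without replicate 2 of Hif1a Ahr KO or in a fit of the 6 Hif1a Ahr libraries alone, and the 3 lower in Hif1a KO became 0 without replicate 3 of Hif1a flox or with no filter on low counts, and 1 without replicate 1 of Hif1a flox, replicate 1 of Hif1a KO or replicate 2 of Hif1a KO.

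**Figure D4:**
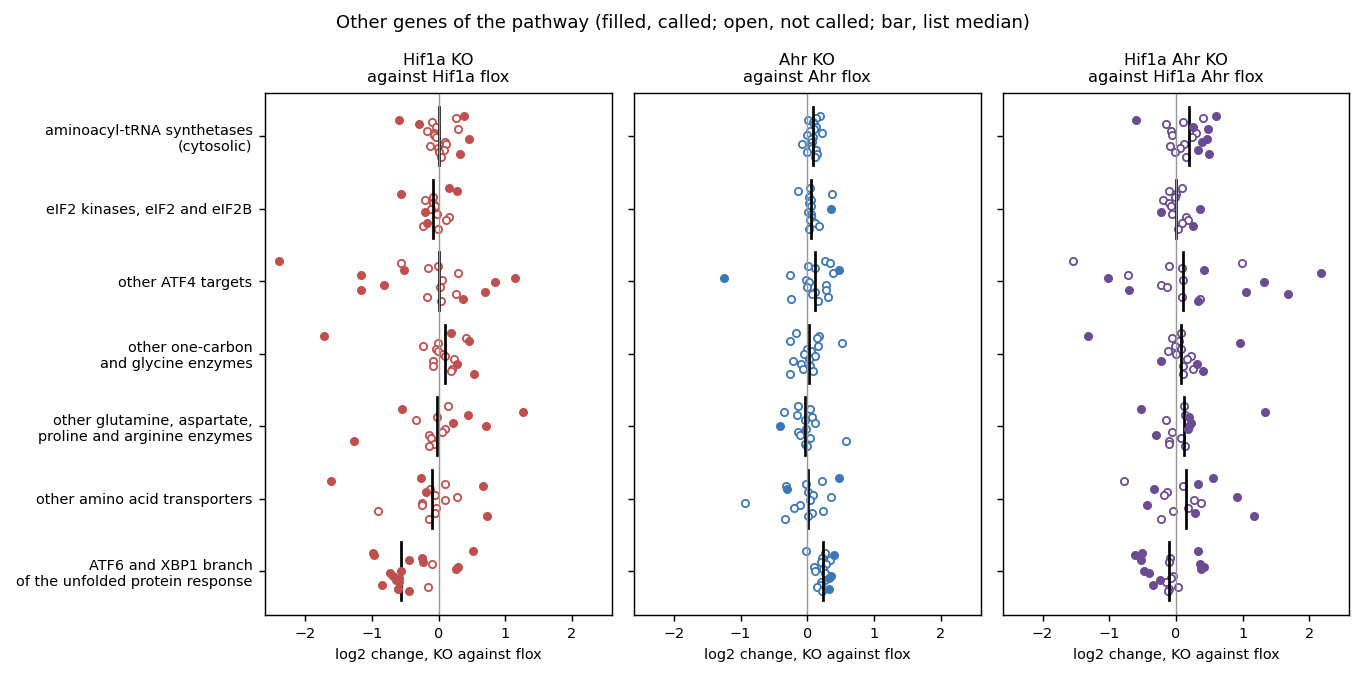
Log2 change of KO over flox (x axis) for each tested gene of 7 other lists (y axis) in the 3 lines; filled points were called, open points were not, and the black bar is the list median. The ATF6 and XBP1 branch lies left of 0 in Hif1a KO (median -0.56) and right of 0 in Ahr KO (median 0.23), and the tRNA synthetases lie furthest right in Hif1a Ahr KO (median 0.20).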

How the data were processed

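Spleen NK cells of 6 genotype groups, 3 libraries each, were measured by strand-specific mRNA sequencing after 7 days at 1% oxygen. Per the submitters' processing notes, Trim Galore 0.6.4, kallisto 0.4.6, edgeR 3.17 and the GRCm39 build were used; the settings and the transcript annotation are not given in the sources used here. The authors deposited estimated counts per gene, not normalized, and log2 CPM values. The deposited log2 CPM values were recomputed from the estimated counts (prior count 2), with differences of at most 6.2e-15. How kallisto divided reads between near-identical genes was not checked.

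Tests used the estimated counts. Of the 56953 identifiers, 4924 without a symbol held 0.315% of counts and were tested but not named. In R 4.3.3, edgeR 4.0.16 applied TMM scaling, filterByExpr, 1 mean per group over all 18 libraries (12 residual degrees of freedom, common biological coefficient of variation 0.117), robust quasi-likelihood fits and 2-sided F tests, with Benjamini-Hochberg adjustment over 16747 genes. A gene was called at an adjusted p under 0.05. CPM values in the text are TMM-scaled. The test scripts were tested on simulated data. The chi-square per degree of freedom between replicates was 16.5 to 43.5, so no libraries of a group agreed within sampling noise. It was highest in Hif1a Ahr flox (43.5) and Hif1a Ahr KO (34.6), while the main fit estimated 1 spread per gene over all groups.

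Alternatives were DESeq2 size factors, upper-quartile factors, no filter or a mean of at least 1 CPM, DESeq2 1.42.0 and limma voom (limma 3.58.1), only the groups compared, a replicate block and leaving out each library. For DESeq2 the counts were rounded. Same-numbered flox and KO libraries had correlated deviations from their group means over genes of at least 5 CPM: 0.33, 0.54 and 0.30 in the Hif1a line and 0.52, 0.44 and 0.49 in the Ahr line. Every same-numbered pair there exceeded 0.1, so the numbers were taken to pair these libraries. In the Hif1a line, flox replicate 1 with KO replicate 3 also exceeded it, at 0.1085. The pairing comes from the data, not from the labels. All members are named, with full values for those called in at least 1 KO against flox comparison and a mean of at least 1 CPM; up to 4 called genes of each other list and comparison may be named, by adjusted p. Single values of some list genes are not reported here. The members and lists were chosen with earlier results of these data known. Promoter windows are from RefSeq.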

Additional observations from a re-analysis of the deposited data

Results flagged for a closer look

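In 14 tests of members, the effect of KO differed between lines in edgeR's quasi-likelihood test of the difference itself, on the log2 scale. All values are the effect in the first line minus that in the second, with the SE and the adjusted p over all genes tested.

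For the Hif1a line minus the Ahr line, the largest differences were those of Vldlr, -4.82 ± 0.57 (adjusted p = 2.02e-05), and Stc2, -3.11 ± 0.38 (adjusted p = 2.49e-05). Among the stress regulators, Sesn2 differed by 0.67 ± 0.15 (adjusted p = 0.00171), Nupr1 by 1.97 ± 0.71 (adjusted p = 0.0431), Cebpg by 0.44 ± 0.14 (adjusted p = 0.0195), Ddit3 by -0.83 ± 0.26 (adjusted p = 0.0205) and Atf4 by -0.60 ± 0.20 (adjusted p = 0.029). Among the enzymes, Mthfd2 differed by 0.82 ± 0.20 (adjusted p = 0.00414), Mthfd1l by -0.67 ± 0.12 (adjusted p = 0.000255), Psph by 0.55 ± 0.18 (adjusted p = 0.0305) and Phgdh by 0.47 ± 0.15 (adjusted p = 0.0262). The transporter Slc1a5 differed by -0.49 ± 0.15 (adjusted p = 0.0157). Sesn2, Stc2, Vldlr, Mthfd2, Mthfd1l and Slc1a5 were called in all 12 fits that left out 1 library of these lines. Ddit3 was called in 10 of them, Cebpg in 8, Atf4, Phgdh and Psph in 5 and Nupr1 in 3.

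For the Hif1a Ahr line minus the Hif1a line, Slc1a5 differed by 0.53 ± 0.15 (adjusted p = 0.031) and Slc38a1 by 0.43 ± 0.11 (adjusted p = 0.0202). Of the 12 fits that left out 1 library, Slc1a5 was called in 6 and Slc38a1 in 8. Both differences contain the Hif1a flox and Hif1a KO libraries, so the values of Slc1a5 in the 2 differences are not independent.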

How the results depend on the processing

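Scaling with DESeq2 size factors or upper-quartile factors, both filters, DESeq2 and limma voom kept every count of called members within 1.5 times its value in the text, except that DESeq2 called 5 members for the Hif1a Ahr minus Hif1a difference and limma voom called 1 lower in Ahr KO. These scalings moved the median of all genes by at most 0.02 on the log2 scale. Fitting only the groups compared called 1 lower in Ahr KO, 12 higher in Hif1a Ahr KO and 1 for the Hif1a Ahr minus Hif1a difference; it does not apply to the departure from the sum of the single effects, which takes all 18 libraries. With the replicate block, 18 members were called higher and 9 lower in Hif1a KO, 13 higher in Ahr KO, 26 higher and 5 lower in Hif1a Ahr KO (18.1% and 19.2% of all genes), 22 for the Hif1a minus Ahr difference, 14 for the Hif1a Ahr minus Hif1a difference (18.9% of all genes; Slc6a9, adjusted p = 4.22e-05, Slc7a5, adjusted p = 8.57e-05, and 9 of the 12 members called in the Hif1a Ahr line and not in the Hif1a line) and 1, Slc6a9, for the departure from the sum (0.209% of all genes). In the Hif1a Ahr line the same-numbered libraries correlated at 0.0779, 0.46 and 0.29, so there the numbers are a hint from the data. Calls of that line in the Results do not use the pairing. The block fit held blocks for all 3 lines, so blocked values of the other lines come from a fit that also paired these libraries. The block ended no call of a member in the 3 KO against flox comparisons and was not run for the comparison of the flox groups. Leaving out 1 library gave 7 to 10 higher and 3 to 7 lower in Hif1a KO, 0 in Ahr KO in both directions, 12 to 22 higher and 3 to 4 lower in Hif1a Ahr KO, 7 to 11 and 0 to 8 for the 2 differences between lines, and 0 for the departure and the flox groups. No called member changed direction under any of these settings. With 3 libraries a group, members with few counts, such as Nupr1 and Slc7a11, had standard errors near 0.5 on the log2 scale.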
